A study of Mus musculus with 26 samples.

Results

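A set of 9 genes of leukocyte recruitment was followed through mesenteric arteries of mice that lack pannexin 1 or carry changed phosphorylation sites in it. The genes are Vcam1, Icam1, Sele, Selp, Ackr1, Ccl2, Ccl7, Cxcl1 and Cxcl12. They were picked out by symbol, from a list made with earlier results of these data known, and are 9 of the 21031 genes in the deposited normalized table and of the 57010 gene identifiers in the deposited counts table. The study sequenced poly(A) RNA of mesenteric arteries, small resistance vessels of the gut, from male mice aged 8 weeks, in 26 libraries and 8 groups. Pannexin 1 is a membrane channel that releases ATP, and each of the 3 substitutions Y198F, S205A and Y308F replaces an amino acid that can be phosphorylated. The 3 wild-type (WT) libraries are set against 3 global Panx1 KO libraries, which lack the gene in every cell type and not in a chosen one. The other lines are labelled by allele. The Y198F line has 3 control libraries (Y198F-/-) beside 3 mutant ones (Y198F+/+). For S205A there are 4 of each kind (S205A-/- and S205A+/+), and for Y308F 3 of each (Y308F-/- and Y308F+/+). Controls are described as littermates or wild type, without saying which applies to which line, and the labels name no treatment or inflammatory stimulus in any group. For each genotype the design text states 3 vascular trees, 1 fewer than the number of libraries in either S205A group.

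Leukocytes leave the blood in steps. Selectins on endothelial cells (E-selectin, encoded by Sele, and P-selectin, encoded by Selp) slow the passing cells by binding sugars on them, chemokines held at the vessel surface activate leukocyte integrins, and the integrins then grip the immunoglobulin-type proteins encoded by Icam1 and Vcam1. Ccl2 and Ccl7 attract monocytes, Cxcl1 attracts neutrophils, and Cxcl12 guides many blood cell types through the receptors Cxcr4 and Ackr3. Ackr1, the Duffy antigen receptor, binds many inflammatory chemokines without signalling and is known as a marker of venules. Several of these genes are known to be induced by inflammatory cytokines through NF-kB, whereas Cxcl12 is made steadily by stromal cells in many tissues.

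Each library held between 14895969 and 23617902 counts. Levels are given as CPM, counts scaled to a common library size over the 26 libraries, and 3 counts, the floor used here for detection, correspond to 0.127 to 0.196 CPM. Counts of replicate libraries differed beyond sampling noise in all 30 pairs (chi-square per degree of freedom 13.6 to 142). The p-values measure the spread between these libraries, which the labels do not tie to single animals. Panx1 itself had 61 to 96 counts in the WT libraries and 11 to 27 in the Panx1 KO libraries. The defining genes of an artery were present, with Myh11, smooth muscle myosin, at a mean of 11771 CPM and the endothelial gene Pecam1 at 2527 CPM. In 9 libraries the library name carries a number that begins with 22: all Y198F mutant libraries, the S205A control libraries 1 to 3 and the mutant libraries 2 to 4 of that line. These are called the 22 series here. The labels do not say what the number means. All Y198F mutants and no Y198F control belong to it, so series and mutation cannot be told apart in that comparison. S205A control 1 stood apart in endothelial content: the summed level of 10 endothelial marker genes was 1268 CPM there. It lay between 3368 and 10295 CPM in 24 libraries and was highest in S205A control 2, at 10469 CPM. In whole arteries, fewer cells of a type and less RNA per cell cannot be told apart.

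The members lie on 6 chromosomes of the mouse build GRCm39, in the GENCODE vM39 annotation. The selectin genes are neighbours on chromosome 1, Sele at chr1:163867401-163886055 and Selp at chr1:163942833-163977595, both on the plus strand and 56777 bases apart. The monocyte chemokine genes are neighbours on chromosome 11, Ccl2 at chr11:81926397-81928279 and Ccl7 at chr11:81936532-81938351, both on the plus strand and 8252 bases apart. Vcam1 lies at chr3:115903598-115923355 on the minus strand, Icam1 at chr9:20926672-20940113 on the plus strand and Ackr1 at chr1:173159453-173161317 on the minus strand. Cxcl1 lies at chr5:91039094-91040974 and Cxcl12 at chr6:117144945-117158328, both on the plus strand. Vcam1, Icam1, Sele and Selp each overlap at least 1 long noncoding RNA gene on the opposite strand, and Ackr1 also overlaps the protein-coding gene Cadm3 on its own strand. Whether counting used the strand is not given in the sources used here, so the counts of these 5 genes may include or lose reads of the overlapping genes. The 4 chemokine genes overlap no annotated gene.

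The 250 bases before the start of the canonical transcript are shown for 4 members, because Vcam1, Icam1 and Selp moved together across libraries and Cxcl1, which holds the other NF-kB match, stayed low. They are written 5′ to 3′ on the gene's own strand, read from the GRCm39 genome. Capitals mark matches to the 10-letter NF-kB consensus (in Icam1 and Cxcl1) or to TGANTCA, an AP-1-like motif with any middle base (in Vcam1 and Selp).
Vcam1, chr3:115923348-115923597, minus strand: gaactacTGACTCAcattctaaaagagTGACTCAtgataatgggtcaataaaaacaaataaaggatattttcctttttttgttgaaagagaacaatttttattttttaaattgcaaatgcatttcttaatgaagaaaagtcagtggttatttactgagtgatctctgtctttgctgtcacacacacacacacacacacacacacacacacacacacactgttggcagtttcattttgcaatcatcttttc
Icam1, chr9:20926422-20926671, plus strand: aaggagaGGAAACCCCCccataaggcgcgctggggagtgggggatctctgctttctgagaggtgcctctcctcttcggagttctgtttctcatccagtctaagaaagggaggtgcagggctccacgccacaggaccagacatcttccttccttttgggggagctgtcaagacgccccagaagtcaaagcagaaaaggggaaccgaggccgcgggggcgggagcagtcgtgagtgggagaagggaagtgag
Selp, chr1:163942583-163942832, plus strand: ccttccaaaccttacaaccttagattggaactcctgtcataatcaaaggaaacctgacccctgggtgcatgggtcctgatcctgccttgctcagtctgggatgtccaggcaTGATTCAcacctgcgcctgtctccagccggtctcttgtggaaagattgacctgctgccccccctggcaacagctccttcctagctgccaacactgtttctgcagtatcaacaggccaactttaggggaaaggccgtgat
Cxcl1, chr5:91038844-91039093, plus strand: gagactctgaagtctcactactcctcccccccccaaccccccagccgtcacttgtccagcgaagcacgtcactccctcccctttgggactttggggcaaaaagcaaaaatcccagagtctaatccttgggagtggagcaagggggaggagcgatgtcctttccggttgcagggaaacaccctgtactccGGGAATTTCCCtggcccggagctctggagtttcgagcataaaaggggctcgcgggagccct
A total of 4 motifs were searched on both strands from 250 bases before to 50 bases after the start: the NF-kB consensus, TGANTCA, the interferon response pair (GAAA, any 2 bases, GAAA) and the TATA box TATAAA. Matches to different motifs did not overlap, and the motif TGANTCA reads as itself on the other strand. The NF-kB consensus occurred in 2 of the 9 members, Icam1 at position -243 and Cxcl1 at positions -61 and -60 on opposite strands, against 4.87% of 21757 protein-coding genes. TGANTCA occurred in 4 members (Vcam1 at -243 and -223, Sele at -43, Selp at -139 and Ccl7 at -63) against 7.15%. The match was TGACTCA in Vcam1 and Sele and TGATTCA in Selp and Ccl7. TATAAA occurred in 2 members, Sele and Ccl7, against 13.2%, and the interferon response pair in 0 against 3.84%. A match describes letters in a window and not a bound site.

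The members differed widely in level. Levels between genes are compared here as CPM per kilobase of exon, with the median over 26 libraries. The length is that of all annotated exons of a gene merged, and the order under other lengths was not tested. Vcam1 was highest at 52.5, followed by Selp at 14.3, Icam1 at 11.9 and Cxcl12 at 4.89. Ackr1 stood at 1.46 and Cxcl1 at 1.14. Ccl7 at 0.506, Ccl2 at 0.406 and Sele at 0.143 were near the limit of detection, with medians of 7.5, 8.5 and 10 counts per library. Sele had 0 counts in 2 libraries, Ccl2 in 3 and Ccl7 in 5.

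**Figure D1:**
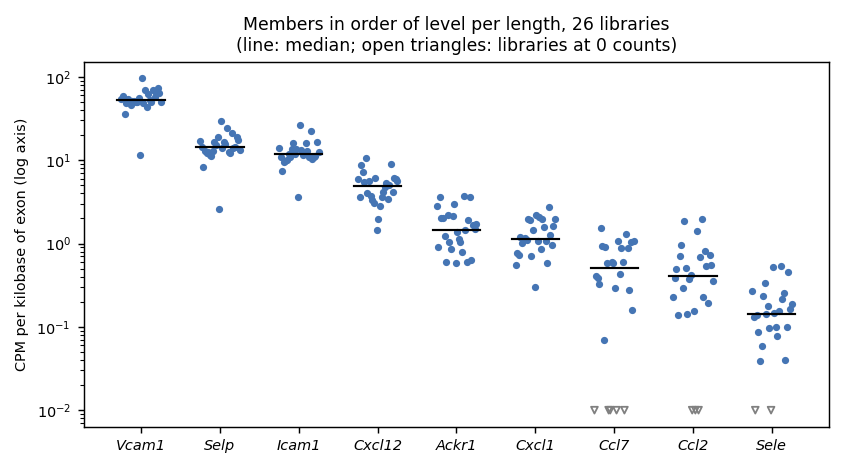
Level of each member in CPM per kilobase of exon (log axis), 1 point per library (n = 26), with the median as a line and open triangles for libraries at 0 counts. Vcam1 sits highest with a median of 52.5, Selp (14.3) and Icam1 (11.9) lie close together, and Ccl7, Ccl2 and Sele lie lowest, with libraries at 0.

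The order held unevenly inside libraries. Vcam1 exceeded Selp in 26 of 26 libraries, Cxcl12 exceeded Ackr1 in 26, Icam1 exceeded Cxcl12 in 24, Cxcl1 exceeded Ccl7 in 22, and Selp exceeded Icam1 in 21, as did Ccl2 over Sele. Ackr1 exceeded Cxcl1 in 15 of 26 and Ccl7 exceeded Ccl2 in 14 of 26, so these neighbours did not differ beyond their spread. The ranges over libraries overlapped for all 8 neighbouring pairs. The selectins thus stood at opposite ends of the order, Selp second and Sele last.

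Vcam1, the ligand of the integrin VLA-4, was expressed in every library. It measured 487, 529 and 323 CPM in WT and 433, 486 and 453 in Panx1 KO. Y198F controls had 412, 466 and 457 CPM, and Y198F mutants 444, 451 and 495. S205A controls had 103, 863, 432 and 633 CPM and S205A mutants 390, 560, 478 and 446. Those S205A controls hold both the lowest and the highest of all 26 values, in controls 1 and 2. Y308F controls had 620, 518 and 579 CPM and Y308F mutants 667, 581 and 447. Group means lay between 445 ± 29.3 CPM (SD, n = 3, Y198F control) and 572 ± 51.3 (SD, n = 3, Y308F control), and the 2 groups of every mutant-control pair overlapped.

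Icam1, the ligand of the leukocyte integrins LFA-1 and Mac-1, measured 68.9, 53.9 and 36.7 CPM in WT and 46.9, 48.4 and 49.9 in Panx1 KO. Y198F controls had 58.7, 54.8 and 67.1 CPM and Y198F mutants 79.6, 59.8 and 66.8. S205A controls had 17.8, 133, 65.7 and 58.1 CPM and S205A mutants 60.9, 80.5, 64.7 and 54.2. Controls 1 and 2 again hold the lowest and highest of the 26 values. Y308F controls had 111, 51.8 and 55.0 CPM and Y308F mutants 55.4, 81.6 and 62.6. The high value of 111 belongs to Y308F control 1, whose endothelial marker sum of 10295 CPM was the highest after S205A control 2.

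Selp, whose product is stored in endothelial granules and in platelets, measured 74.2, 63.8 and 36.6 CPM in WT and 57.1, 53.3 and 55.0 in Panx1 KO. Y198F controls had 51.6, 49.6 and 56.2 CPM and Y198F mutants 72.7, 67.1 and 83.6. All 3 Y198F mutants lay above all 3 of their labelled controls, in a comparison where the groups did not overlap for 34.2% of all genes tested. S205A controls had 11.3, 130, 62.0 and 72.2 CPM and S205A mutants 68.5, 108, 55.7 and 54.6. Y308F controls had 92.5, 61.5 and 64.4 CPM and Y308F mutants 83.4, 76.9 and 58.0, with the 2 groups overlapping. Platelet RNA was scarce: the summed level of 6 platelet and megakaryocyte markers was at most 10.03 CPM in any library, and Gp1bb, encoding a platelet adhesion receptor subunit, had 0 counts in 25 of 26. Sele, which endothelium makes chiefly after cytokine stimulation, stayed between 0 and 34 counts in every library, and its group means ran from 0.337 ± 0.189 CPM (SD, n = 3, Panx1 KO) to 1.03 ± 0.613 (SD, n = 3, Y308F).

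Among the low chemokine genes and the chemokine-binding receptor, libraries of the same group often differed several-fold. Ackr1 ranged from 0.830 to 5.17 CPM (13 to 100 counts), with coefficients of variation within groups from 7.80% (Y308F) to 87.1% (S205A). Cxcl1 ranged from 0.570 to 5.20 CPM (11 to 101 counts). Ccl2 ranged from 0 to 38 counts and Ccl7 from 0 to 26 counts, so that many of their libraries lay near the floor of 3 counts. A value of 0 counts allows a level of up to 3 counts, which is at most 0.196 CPM in these libraries, and this limit covers counting error only.

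Cxcl12, the stromal chemokine, had the highest level per length of the 4 chemokine genes. It measured 50.2, 30.1 and 72.6 CPM in WT and 59.8, 45.7 and 89.1 in Panx1 KO. Y198F controls had 33.5, 46.4 and 31.4 CPM and Y198F mutants 27.7, 25.9 and 51.4. S205A controls had 12, 16.6, 23.7 and 29.9 CPM and S205A mutants 34.3, 39.6, 44.0 and 28.9. S205A controls 1 to 3 hold the 3 lowest of the 26 values. Y308F controls had 42.0, 74.4 and 34.4 CPM and Y308F mutants 51.1, 49.2 and 47.4.

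**Figure D2:**
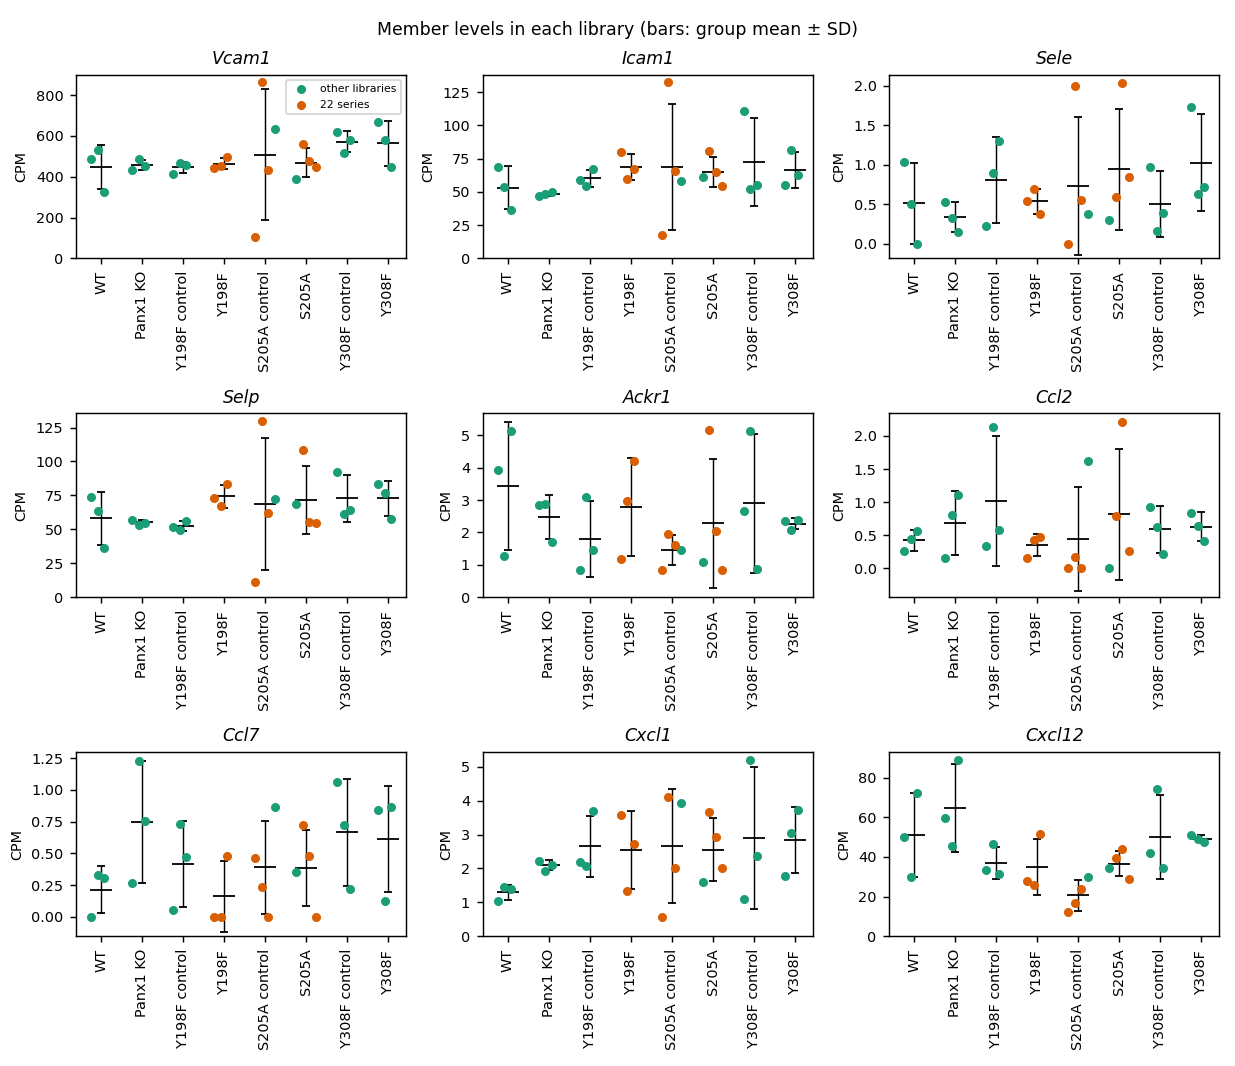
CPM of each member in each of the 26 libraries by group, with the group mean ± SD as black bars and libraries of the 22 series in orange. S205A controls 1 and 2 hold the lowest and highest values of Vcam1, Icam1 and Selp, and the 3 Y198F mutants lie above their labelled controls for Selp alone. In that comparison the groups did not overlap for 34.2% of all genes tested.

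Across the 4 mutant-control comparisons 1 change in a member was detected. A total of 30 member tests could be made with edgeR's quasi-likelihood test, and 6 were not made because the member did not pass the filter on low counts. Of the 30, 1 passed an adjusted p of 0.05, in Y198F, against 15.0% of all genes there. At an unadjusted p under 0.05 there were 2. The median size of the log2 fold change in either direction was 0.37 for the members against 0.19 for all genes in Panx1 KO, 0.19 against 0.28 in Y198F, 0.12 against 0.12 in S205A and 0.09 against 0.16 in Y308F. The libraries of mutant and control did not overlap for 2 pairs of member and comparison, Selp in Y198F and Cxcl1 in Panx1 KO, against 34.2% and 18.8% of all genes in those comparisons.

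**Figure D3:**
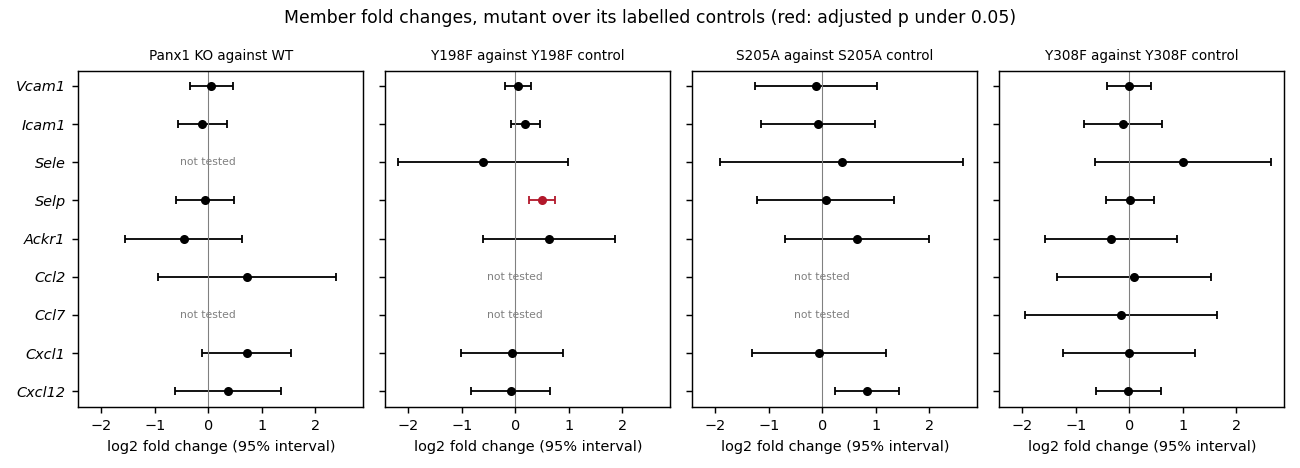
Log2 fold change of each member, mutant over labelled control, with its 95% interval, in the 4 comparisons. Selp in Y198F (0.50, red) is the only member whose adjusted p is under 0.05, and the intervals of Vcam1, Icam1 and Selp are wider in S205A than in the other comparisons.

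Loss of Panx1 was not accompanied by a detected change in any member. Of the 7 members tested in Panx1 KO against WT, 0 passed, and the background was 5 of 16193 genes (0.0309%), with 0.0124% higher and 0.0185% lower. No member had an unadjusted p under 0.05, against 1817 of all genes, and DESeq2 and limma also called 0 members. Vcam1 differed by 0.06 (SE 0.180, 95% interval -0.35 to 0.46) on the log2 scale, Icam1 by -0.11 (SE 0.199, -0.57 to 0.34) and Selp by -0.06 (SE 0.233, -0.60 to 0.49). Cxcl1, the neutrophil chemokine, measured 1.03, 1.44 and 1.39 CPM in WT and 2.22, 1.93 and 2.11 in Panx1 KO, which is 20 to 27 counts against 41 or 42. The 3 knockout libraries lay above the 3 WT libraries. The groups did not overlap for 18.8% of all tested genes in this comparison. The difference of 0.72 (SE 0.369) did not pass (edgeR adjusted p = 0.512, exact permutation p = 0.1, two-sided, the smallest that 3 against 3 allows). In the authors' deposited table the Cxcl1 fold change is 0.71 on the log2 scale, and its adjusted p is 0.807. Neutrophil genes were at or near 0: of 7 neutrophil markers, Retnlg, Ly6g and Mpo had 0 counts in all 26 libraries. Their sum was at most 0.207 CPM in WT and 0.106 CPM in Panx1 KO.

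Selp rose in the Y198F libraries and the other 6 members tested did not pass. P-selectin RNA averaged 74.5 ± 8.39 CPM in the Y198F libraries (SD, n = 3) against 52.5 ± 3.39 CPM in the labelled controls (SD, n = 3), higher in 3 of 3 mutants than in any control. The log2 fold change was 0.50 (SE 0.108), a 1.41-fold difference with a 95% interval of 1.2 to 1.66, and edgeR's adjusted p was 0.0110. The exact permutation p was 0.1, two-sided, the smallest that 3 against 3 allows. The background was high: 15.0% of 16050 genes passed in this comparison, 9.55% being higher and 5.48% lower in Y198F, and the groups did not overlap for 34.2%. A count of 1 in 7 members is near that background. Vcam1 differed by 0.05 (SE 0.109, 95% interval -0.19 to 0.29) and Icam1 by 0.19 (SE 0.125, -0.09 to 0.46). Sele, the other selectin, differed by -0.60 (SE 0.726) from 4 to 25 counts in the controls and 7 to 13 in the mutants.

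The rise in Selp stood beside markers of several cell types and beside the library series. Of 10 endothelial markers tested, 3 passed and were higher in Y198F, where 9.55% of all genes were called higher: Cldn5, a tight-junction protein, by 0.59, Robo4, an endothelial guidance receptor, by 0.77 and Tie1, a receptor kinase, by 0.39. The median over the 10 was 0.18, against -0.0028 over all genes tested, and the other 7 did not pass. Markers of other cell types were called there too. Of 8 smooth muscle markers, Tagln (1.14) and Smtn (0.54) were higher and Lmod1 (-0.48) was lower, of 6 Schwann cell markers S100b (-0.89) and Mbp (-0.85) were lower, and of 9 macrophage and monocyte markers Ly6c2 (2.47) was higher. Of 7 arterial endothelial markers, 3 were higher: Gja4 (0.98), Sox17 (0.55) and Dll4 (0.49). Of 8 venous endothelial markers 2 were higher, Selp itself and Plvap. With 0 called, the median was -0.95 for 6 lymphatic endothelial markers, -0.86 for 8 fibroblast markers, 1.23 for 7 adipocyte markers and 1.55 for 5 erythroid markers. In the fit of all 26 libraries with the 8 groups as terms, the series difference rests on the S205A line, and 11.7% of all genes were called. Gja4 (0.90), Tagln (1.31) and Ly6c2 (2.53) were called higher in the 22 series, as was the Schwann cell marker Prx (0.65), which was not called in Y198F. The other markers named here were not called between the series, nor was any of the 10 endothelial markers. Selp itself differed between the series by -0.0046 (SE 0.497). The part of these lists in the Selp difference was not tested. The summed endothelial level was 4086 to 5167 CPM in the controls and 5317 to 5732 CPM in the mutants. Per 100 reads of Vcam1 there were 10.6 to 12.5 reads of Selp in the controls and 14.9 to 16.9 in the mutants, and per 100 reads of the endothelial sum 1.04 to 1.21 and 1.26 to 1.46. Both ratios are built from the same Selp values, and how many other genes would separate in this way was not tested. With all 8 groups in a single fit the Selp difference was 0.50 (SE 0.483) and its adjusted p 0.602, and with the series as a further term it was 0.51 (SE 0.699) with an adjusted p of 1.00. Against the 3 S205A controls of the 22 series, which come from another line, Selp differed by 0.13 (SE 0.767, adjusted p = 1.00). Those 3 controls measured 11.3, 130 and 62.0 CPM and enclose every Y198F value. In that comparison edgeR called 0 of 15879 genes (0%), 492 had an unadjusted p under 0.05, and DESeq2 called 37, none of them a member. In the authors' deposited table for Y198F the Selp fold change is 0.10 on the log2 scale, and its adjusted p is 0.989. The fold changes in that table match a calculation from the S205A controls (largest difference 0.00016 over 18991 genes), and not a calculation from the libraries labelled as Y198F controls (correlation across genes 0.535), so it is not a check of the labelled comparison.

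Cxcl12 had the largest difference among the members tested in S205A but did not pass. It averaged 36.7 ± 6.53 CPM in the mutants (SD, n = 4) against 20.5 ± 7.89 CPM in the controls (SD, n = 4). The mutants were higher by 0.83 on the log2 scale (SE 0.266, 95% interval 0.24 to 1.43). S205A mutant 4 at 28.9 CPM lay below control 4 at 29.9, so the groups overlapped. EdgeR gave an unadjusted p of 0.0108 and an adjusted p of 1.00, and the exact permutation p was 0.0571, two-sided, where 4 against 4 could reach 0.0286. None of the 7 members tested passed, nor did any of 15709 genes (0%), of which 451 had an unadjusted p under 0.05. DESeq2 called 47 genes, 0 of them members. The groups did not overlap for 1.81% of genes. Vcam1 differed by -0.12 (SE 0.501, 95% interval -1.25 to 1.01), Icam1 by -0.07 (SE 0.471, -1.14 to 0.99) and Selp by 0.06 (SE 0.568, -1.22 to 1.35). These intervals were wider than in the other 3 comparisons, and controls 1 and 2 lie at both ends of the values. Without both controls the Vcam1 difference was -0.19 (SE 0.206) and that of Cxcl12 0.45 (SE 0.203), a setting chosen after the data were seen. In the authors' deposited table the Cxcl12 fold change is 0.83 on the log2 scale, and its adjusted p is 0.325. No gene of the marker lists was called. The summed level of 8 fibroblast markers was 1707 to 2536 CPM in the controls and 2604 to 6647 CPM in the mutants. Their median log2 fold change was 1.26. The summed level of 6 Schwann cell markers was 70.5 to 101 CPM and 97.8 to 192 CPM, so the groups overlapped, with a median of 0.96. After removal of group means and series, Cxcl12 correlated at 0.37 with the fibroblast sum and 0.47 with the Schwann cell sum over the 26 libraries, below its values with other lists given further on. In S205A the medians of those other lists went both ways. They were -0.54 for 7 adipocyte, 0.32 for 9 macrophage and monocyte and 0.30 for 6 lymphatic endothelial markers. With few genes tested, they were -0.45 for mast cell (1) and 0.64 for platelet markers (2). The part of all these lists in the Cxcl12 difference was not tested.

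The Y308F libraries showed no detected change in any member. All 9 could be tested and 0 passed, against 0 of 16037 genes (0%) with edgeR and 706 at an unadjusted p under 0.05, and DESeq2 and limma also called 0 genes. No member had an unadjusted p under 0.05. The median log2 fold change of the 9 members was -0.01, against -0.03 over all genes tested. Vcam1 differed by -0.01 (SE 0.182, 95% interval -0.42 to 0.40), Selp by 0.01 (SE 0.196, -0.44 to 0.46) and Cxcl12 by -0.02 (SE 0.261, -0.62 to 0.59). Sele had 21, 3 and 7 counts in the controls and 33, 15 and 14 in the mutants, a difference of 1.00 (SE 0.729, adjusted p = 0.940). The groups overlapped for every member, while they did not overlap for 10.7% of all genes tested.

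No member's response was found to differ between mutations. The 6 pairs of the 4 effects gave 54 member tests in a single fit of the 26 libraries, of which 0 passed and 0 had an unadjusted p under 0.05. The background was 108 of 18715 genes (0.577%) for Panx1 KO against Y198F, 3 genes (0.0160%) for Y198F against S205A, 2 genes (0.0107%) each for Panx1 KO against S205A and against Y308F, and 0 genes (0%) for the other pairs. The lowest unadjusted p, 0.0736, belonged to Cxcl12, whose effect in Y198F was lower than in S205A by 0.92 on the log2 scale (SE 0.486, adjusted p = 0.334). Between the 22 series and the other libraries, estimated with the 8 groups as terms, 0 of 9 members passed, against 2189 of 18715 genes (11.7%; 7.57% higher and 4.13% lower). Since only the S205A groups hold libraries of both kinds, this estimate rests on S205A control 4 and mutant 1 against the other 6 libraries of that line, and without control 4 the number of genes was 282. The 95% interval of the difference between the series ran from -1.05 to 1.04 for Selp and from -0.96 to 0.80 for Vcam1, on the log2 scale. Against the S205A controls of the 22 series, Y198F had higher Cxcl12 (1.00, SE 0.346, unadjusted p = 0.0233, adjusted p = 1.00), with 25.9 to 51.4 CPM against 12 to 23.7. The groups did not overlap for 8.23% of genes there. The S205A and this Y198F comparison share control libraries, so the Cxcl12 values are not independent of each other.

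The endothelial members rose and fell together from library to library. After the 8 group means and the series were removed, log2 CPM of Vcam1 and Selp correlated at r = 0.95 over 26 libraries, Icam1 and Selp at 0.93 and Vcam1 and Icam1 at 0.86. Sele joined them at 0.72 to 0.75 in spite of its low counts. These points share library depth and tissue composition, and the values are descriptions. Without S205A control 1 the correlations were 0.89 for Vcam1 and Selp, 0.87 for Icam1 and Selp and 0.73 for Vcam1 and Icam1. Without the 2 libraries farthest from the median they were 0.78, 0.74 and 0.45, and those of Sele with the other 3 were 0.48 to 0.57. Among the other members, Ackr1 and Cxcl12 correlated at 0.66 and Ccl2 and Ccl7 at 0.56. Between the adhesion molecules and the chemokines, Vcam1 and Cxcl1 stood at 0.60, Selp and Cxcl1 at 0.54, Vcam1 and Cxcl12 at 0.22 and Icam1 and Cxcl12 at 0.10. Without the 2 libraries farthest from the median, Vcam1 and Cxcl1 stood at 0.12. Vcam1 and Ccl2 stood at 0.41 over all libraries. Without the 2 farthest they stood at 0.53, above Vcam1 and Icam1 in that setting (0.45).

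**Figure D4:**
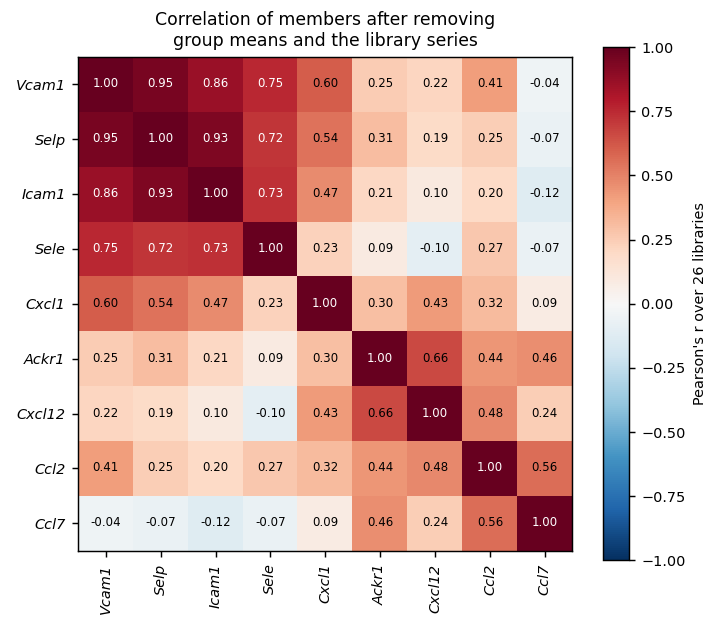
Pearson's r between members over 26 libraries, on log2 CPM after removing group means and the library series (red positive, blue negative). Vcam1, Selp, Icam1 and Sele form a block with r between 0.72 and 0.95, and Ackr1 and Cxcl12 pair at 0.66.

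The same 4 genes followed the endothelial markers most closely, though not them alone, and Ackr1 and Cxcl12 followed several other marker lists. With the summed level of the 10 endothelial markers, none of which is a member, r was 0.96 for Icam1, 0.93 for Selp, 0.90 for Vcam1 and 0.73 for Sele. It was 0.19 for Ackr1 and 0.09 for Cxcl12. Of all genes in the fit, 0.481% correlated with that sum as strongly as Icam1 did, 1.06% as strongly as Selp and 1.87% as strongly as Vcam1. For Sele the share was 5.68%. Without S205A controls 1 and 2, the libraries farthest from the median, r was 0.85 for Icam1, 0.73 for Selp and 0.57 for Vcam1. For Sele it was 0.50. With the summed level of 9 macrophage and monocyte markers, r was 0.81 for Ackr1, 0.77 for Cxcl12, 0.63 for Ccl7 and 0.56 for Ccl2, and 0.04 for Vcam1. Cxcl1 stood at 0.46 with the endothelial sum, which turned to -0.18 without S205A controls 1 and 2, and at 0.22 with the macrophage sum. That sum lay between 14.6 and 165 CPM over the libraries. With mast cell markers r was 0.82 for Ackr1, its highest value with any list, and 0.72 for Cxcl12. Cxcl12 and Ackr1 also followed the adipocyte markers, at 0.77 and 0.69, the lymphatic endothelial markers, at 0.71 and 0.73, and the platelet markers, at 0.62 and 0.67. Icam1, Selp and Vcam1 followed the lymphocyte markers as well, at 0.71, 0.64 and 0.57. With the mast cell markers these 3 stood at 0.51, 0.56 and 0.53, and with the lymphatic endothelial markers at 0.45, 0.51 and 0.53. With the summed smooth muscle markers all 9 members had a negative r, from -0.22 (Sele) to -0.58 (Icam1). Which cells carried the RNA was not tested.

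**Figure D5:**
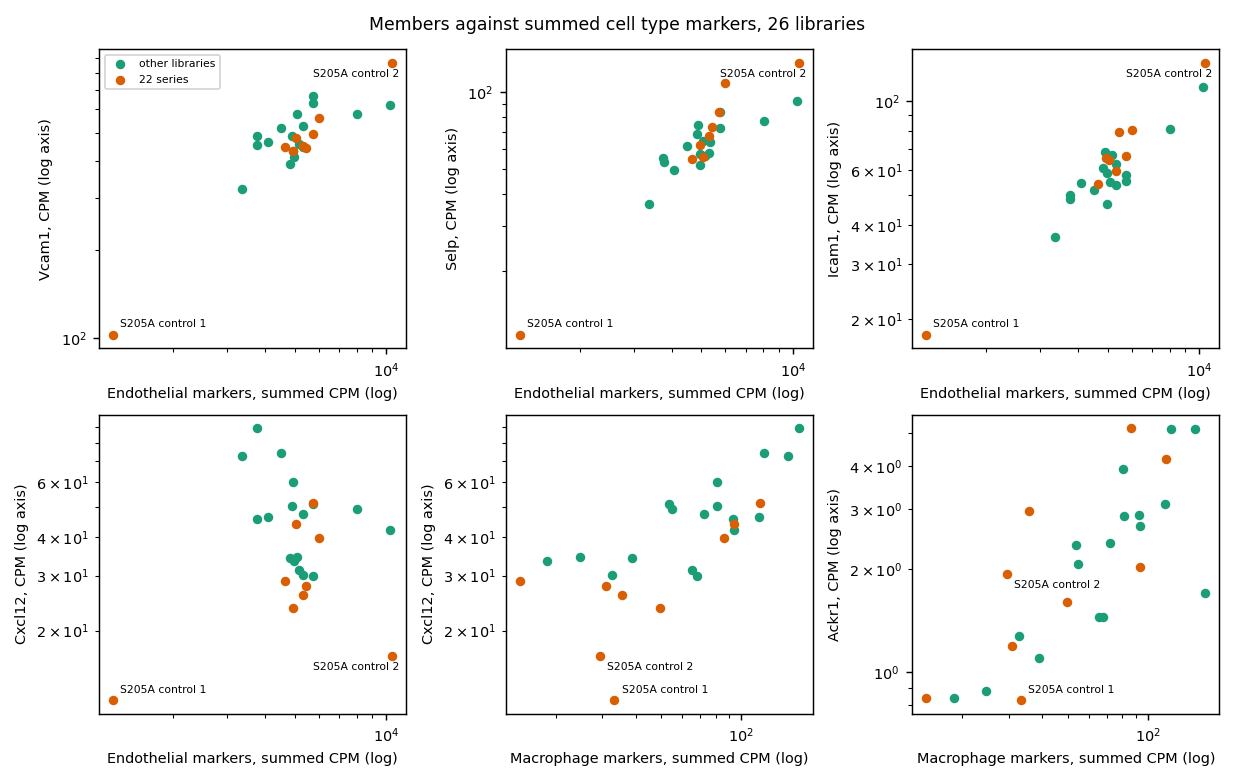
Member CPM against the summed CPM of cell type markers in 26 libraries, both on log axes, with the 22 series in orange. Vcam1, Selp and Icam1 climb with the endothelial sum from S205A control 1 to S205A control 2, whereas Cxcl12 and Ackr1 climb with the macrophage and monocyte sum.

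Set against the endothelial sum, Icam1 and Selp spanned a narrower range than their CPM did, and for Vcam1 this rested on S205A controls 1 and 2. Icam1 amounted to 0.945 to 1.46 reads per 100 reads of the endothelial markers, a 1.55-fold range. Its CPM spanned 7.45-fold over all libraries, 3.62-fold without S205A control 1 and 3.02-fold without controls 1 and 2. Selp amounted to 0.891 to 1.81 per 100 (2.03-fold, and 2.01-fold without control 1 or without both), while its CPM spanned 11.5-fold, 3.54-fold and 2.96-fold. Vcam1 amounted to 6.02 to 12.9 per 100 (2.14-fold with or without these controls), while its CPM spanned 8.40-fold, 2.67-fold and 2.07-fold, so without both controls the ratio varied slightly more than the CPM. Leaving out these libraries was chosen after the data were seen. S205A control 1 had the lowest of these ratios for Selp, while its ratio for Vcam1, 8.10 per 100, lay inside the range of the other libraries. Selp per 100 reads of Vcam1 ran from 10.6 to 19.4 over the libraries.

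The genes most like each member, by correlation of the same residuals over 26 libraries among 18617 genes, are given as a description. For Vcam1 these were Selp (0.95) and Il2rg (0.94), which encodes the shared cytokine receptor gamma chain. Tek, the angiopoietin receptor, and Golm1 were closest to Icam1 (0.98 and 0.97). For Selp they were Clec14a, an endothelial surface lectin (0.97), and Il2rg (0.96). Sele was closest to Ocln, the tight-junction protein occludin (0.85), and Tm9sf1 (0.83). Ackr1 was closest to Cd300c2 (0.86) and Efemp1, a matrix protein (0.85), and Cxcl12 to Tspan18 (0.91) and Arhgap18 (0.90). For the low genes the closest values were lower: Ccl7 with Ncoa4 (0.80) and Fcgr1, an Fc receptor of macrophages (0.76), Cxcl1 with Crb3 (0.81) and Fam78b (0.78), and Ccl2 with Gpatch1 (0.79) and Slc29a3 (0.77). In counts as low as those of Ccl2, Ccl7 and Sele such values carry little information.

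Of the wider pathway, few genes passed the test. Of 17 other endothelial adhesion molecules, 14 were tested in each comparison. None passed in Panx1 KO, S205A or Y308F (3, 0 and 0 had an unadjusted p under 0.05 with edgeR), and in Y198F 2 passed and were higher: Esam, an endothelial junction protein, by 0.44 and Plvap, a protein of endothelial fenestrae, by 0.47. The background in Y198F was 15.0% of all genes called and 9.55% called higher, so 2 of 14 is near it. By counts, and not per length, the list was led by Pecam1 (mean 2527 CPM), Mcam (1536) and Podxl (1249). Of 11 leukocyte-side ligands and integrins, 10 were tested in each comparison and 0 passed, with 2 at an unadjusted p under 0.05. Itgb1, an integrin chain that vessel wall cells also use, had a mean of 2076 CPM, and Itga4 had 63.6.

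Among 30 other chemokines, 12 to 15 passed the filter on low counts in each comparison and edgeR called 0 in any, with 1 at an unadjusted p under 0.05. Of all genes tested, edgeR called 0.0309% in Panx1 KO, 15.0% in Y198F and 0% in S205A and in Y308F. An unadjusted p under 0.05 was held by 1817 of 16193 genes in Panx1 KO, 4663 of 16050 in Y198F, 451 of 15709 in S205A and 706 of 16037 in Y308F. Cx3cl1, a chemokine anchored in the endothelial membrane, had the most counts of this list, at 154 CPM (44.2 to 369 over libraries). Of 20 chemokine receptors, 8 to 11 could be tested, and 0 passed or had an unadjusted p under 0.05, against the same values over all genes. Ackr3, the scavenging receptor for CXCL12, had the most counts of these, at 151 CPM (94.7 to 221). The median log2 fold change of the tested chemokines was 0.07 in Panx1 KO, -0.24 in Y198F, 0.32 in S205A and -0.32 in Y308F, against -0.03 to 0.01 over all genes. These are medians of 12 to 15 mostly low genes.

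Genes upstream of the members and their companions in the NF-kB response were counted in the same way. Of 21 NF-kB inducible genes and regulators, 17 were tested in each comparison and none passed in Panx1 KO, S205A or Y308F, where 3, 0 and 1 had an unadjusted p under 0.05 with edgeR. In Y198F, Tnfaip3, the inhibitor A20, fell by 0.49 on the log2 scale and Cebpd, a transcription factor of the acute phase, rose by 0.88, so 1 fell and 1 rose. Of 9 genes of upstream signalling (cytokine receptors, the toll-like receptors Tlr2 and Tlr4 and the adaptor Myd88), 9 were tested in each comparison, and Tnfrsf1a, the main receptor for TNF, was higher in Y198F by 0.53. In the fit of all 26 libraries with the 8 groups as terms, whose series term rests on the S205A line, it was also higher in the 22 series by 0.44 (SE 0.109, edgeR adjusted p = 0.00986), and of the NF-kB list Birc3, an inhibitor of apoptosis, was lower there, at -0.61. Of 22 immediate early genes, 21 were tested in each comparison, and 1 passed, Ier3, higher in Y198F by 0.87. The counts of 2 of 17, 1 of 9 and 1 of 21 in Y198F are not above the 15.0% of all genes called there. At an unadjusted p under 0.05 stood 5 of 21 immediate early genes in Panx1 KO (1817 of 16193 genes overall), 3 in Y198F (4663 of 16050), 8 in S205A (451 of 15709) and 6 in Y308F (706 of 16037). Their median log2 fold change was 0.13 in Panx1 KO, 0.02 in Y198F, 0.66 in S205A and 0.35 in Y308F, against -0.03 to 0.01 over all genes.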

How the data were processed

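Poly(A) RNA of mesenteric arteries was read in pairs of 150 bases in 26 libraries, per the labels. The authors mapped reads to GRCm39 with STAR 2.7.9a and counted them per gene with featureCounts, per the submitters' processing notes. Annotation release and strand setting are not given in the sources used here. The deposited counts are whole numbers per gene. The deposited normalized table holds a signal, the authors' counts divided by a factor per library. Tables deposited by the authors, made with DESeq2 1.46.0 per the labels, give log2 fold changes with their standard errors, a test score and adjusted p-values, and only their fold changes, errors and adjusted p-values were used.

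Counts were tested with edgeR 4.0.16 in R 4.3.3 (quasi-likelihood test, TMM normalization, filterByExpr, robust dispersion) within the groups of each comparison, with p-values adjusted by the Benjamini-Hochberg method over all genes tested and a threshold of 0.05. DESeq2 1.42.0, limma 3.58.1 (voom with quality weights), other scaling, no filter, a replicate block, single fits of all groups and leaving out each library were the alternatives. Log2 CPM used a prior count of 2. Single members were also compared by exact two-sided permutation of log2 CPM. Groups came from titles and genotypes in the labels. Gene locations, exon lengths and starts came from GENCODE vM39. The test was tested on simulated data with 1 fixed spread for all genes and no series effect. In the Y198F design it recovered 60% of 100 genes changed by 1 log2 unit and 100% of 100 changed by 2, among 15870 genes. Of its calls there, 5.9% were false. Genes with counts as low as those of Sele, Ccl2 and Ccl7 were not changed in it, and sizes below 1 log2 unit were not tried, so these percentages do not cover them. The lowest member counts limit precision. Floors of 3 counts account for counting error alone, as no molecular identifiers are named.

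Always named were the 9 members, then from each fixed list at most 3 genes per comparison past the threshold and those with the most counts, and for each member the 2 genes with the highest residual correlation. Members and lists were chosen with earlier results of these data known. Replicate numbers did not pair the libraries: in no comparison did every same-numbered pair correlate above 0.1.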

Additional observations from a re-analysis of the deposited data

Results flagged for a closer look

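Ccl2, the monocyte chemokine, stood out in S205A control replicate 4 at 1.62 CPM (30 counts). The other 3 S205A controls had 0, 0.176 and 0 CPM, and the gap between this library and the next was large against the range of the 4. That library is also the only S205A control outside the 22 series. The cutoff marks about 1 in 20 sets of normally spread values, and 18 sets of 4 libraries were examined in this way. Those sets share libraries and the counts here are low, so that rate may not hold, and the cause of the value was not tested. The S205A mutant outside the series, replicate 1, had 0 Ccl2 counts.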

How the results depend on the processing

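The call of Selp in Y198F held with DESeq2, limma voom, DESeq2 size factors and no filter on low counts (log2 fold change 0.46 to 0.49), and when each of the 6 libraries was left out in turn (0.42 to 0.57, adjusted p 0.0153 to 0.0432). It was lost, leaving 0 members called, with all 8 groups in a single fit and with the series as a further term. Without S205A mutant 1, 1 member passed between the series, Ccl2 at -4.70 (edgeR adjusted p = 0.0376), as did 932 of 18663 genes. S205A control 4, the library with the high Ccl2 value, is then the only one outside the series that informs the contrast and is assumed to vary like the others. Without control 4 instead, Ccl2 was 7.36 and did not pass. With replicate number as a block, Selp in Y198F was 0.50 (adjusted p = 0.0193) and no member call changed. The block moved the number of genes called from 5 to 18 in Panx1 KO and from 2411 to 1760 in Y198F, and the numbers did not pair the libraries (r between -0.37 and 0.31). Some uncalled differences changed sign. Under the block these were Vcam1 (0.20), Icam1 (0.20) and Cxcl1 (0.19) in S205A, Cxcl1 (0.17) and Cxcl12 (0.060) in Y308F, and Vcam1 (0.43), Icam1 (0.30) and Sele (0.11) in Y198F against the S205A controls of the 22 series. Under limma voom they were Vcam1 (0.12), Icam1 (0.037) and Cxcl1 (0.25) in S205A and Icam1 (0.089) and Cxcl1 (0.031) in Y308F. In Y308F, Vcam1 was 0.0032 with DESeq2 and 0.0056 without the filter, Cxcl1 was 0.011, 0.0099 and, with DESeq2 size factors, 0.0080, and Selp was -0.00044 with all 8 groups and -0.00048 with the series as a term. That term turned Icam1 (-0.024), Cxcl1 (0.048) and Cxcl12 (0.27) in Y198F. Within the 22 series Vcam1 (0.090) and Cxcl1 (0.37) turned in S205A, and Icam1 (0.071) did so without controls 1 and 2. Leaving out 1 library at a time changed further signs. In Panx1 KO the log2 fold change ran from -0.13 to 0.20 for Vcam1, -0.32 to 0.11 for Icam1 and -0.30 to 0.15 for Selp. In Y198F the log2 fold change ran from -0.0016 to 0.084 for Vcam1, -0.41 to 0.24 for Cxcl1 and -0.46 to 0.10 for Cxcl12. In S205A the log2 fold change ran from -0.46 to 0.26 for Vcam1, -0.39 to 0.46 for Icam1, -0.35 to 1.57 for Sele, -0.29 to 0.56 for Selp, -0.14 to 0.92 for Ackr1 and -0.40 to 0.22 for Cxcl1. In Y308F the log2 fold change ran from -0.15 to 0.14 for Vcam1, -0.31 to 0.33 for Icam1, -0.10 to 0.23 for Selp, -0.76 to 0.35 for Ackr1, -0.28 to 0.58 for Ccl2, -0.55 to 0.37 for Ccl7, -0.39 to 0.73 for Cxcl1 and -0.22 to 0.37 for Cxcl12. In Y198F against the S205A controls of the 22 series the log2 fold change ran from -0.49 to 0.79 for Vcam1, -0.53 to 0.72 for Icam1, -1.24 to 0.94 for Sele, -0.36 to 1.02 for Selp and -0.27 to 0.99 for Cxcl1. Between the series the log2 fold change ran from -0.49 to 0.34 for Vcam1, -0.17 to 0.41 for Icam1, -0.45 to 0.23 for Selp, -0.0094 to 1.27 for Ackr1, -4.70 to 7.36 for Ccl2, -1.86 to 0.18 for Ccl7, -0.84 to 0.83 for Cxcl1 and -0.79 to 0.12 for Cxcl12. The number of genes called depended on the method. In Panx1 KO it was 117 with DESeq2, 10 with voom, 243 without the filter and 1 to 5 without 1 library. In Y198F it was 2668 with DESeq2, 2990 with voom, 3158 without the filter, 922 with all groups, 0 with the series term and 908 to 2128 without 1 library, lowest without control 3. S205A had 47 with DESeq2 and at most 1 without 1 library, and Y308F had 7 without the filter and at most 1 without 1 library. Y198F against the S205A controls of the 22 series had 37 with DESeq2 and 9 without the filter. The difference between Panx1 KO and Y198F had 3 with the series term and 3 to 974 without 1 library, that between Y198F and S205A 39 without the filter, 0 with the series term and 0 to 1818 without 1 library, and that between Y198F and Y308F 0 to 627, in each case highest without S205A control 4. The series had 902 in the S205A line alone and 282 to 2404 without 1 library, lowest without S205A control 4. Causes of these changes were not tested. Depth limits Sele, Ccl2 and Ccl7, which had medians of 10 counts or fewer.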
